A study of Mus musculus with 6 samples.

Results

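The genes described here are 7 receptors or receptor-like proteins for steroid hormones: the estrogen receptors Esr1 and Esr2, the progesterone receptor Pgr, the glucocorticoid receptor Nr3c1, the mineralocorticoid receptor Nr3c2, and the membrane components Pgrmc1 and Pgrmc2. They were taken by gene name from the deposited array files, where they have 11 probes among 39429, out of 31693 named genes or transcripts. RNA came from the ovary of female C57BL/6J mice aged 20 weeks, 3 wild type and 3 with the genotype SeBP1 knockout. SeBP1 is selenium-binding protein 1, gene symbol Selenbp1, a methanethiol oxidase. Each of the 6 samples was read on its own single-colour Agilent array, with no treatment given in the labels. The labels do not name separate animals, nor the deleted part of the gene or the cells it was deleted in, so a p-value here reflects only how far these samples vary, which may be technical.

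Steroid hormones cross the cell membrane and bind nuclear receptors, which are transcription factors made of a DNA-binding domain and a ligand-binding domain. Chaperones hold the unliganded receptor, and coactivators or corepressors join it on DNA once a ligand has bound. In the ovary, Esr2 is the estrogen receptor of granulosa cells, Esr1 is found mostly in theca, stroma and surface epithelium, and Pgr is switched on in granulosa cells for a short time by the ovulatory surge of luteinizing hormone. Nr3c1 is made in nearly every cell. Pgrmc1 and Pgrmc2 are heme-binding membrane proteins of the cytochrome b5 type and not nuclear receptors.

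An array probe is a designed oligonucleotide of 60 bases, and its signal depends on where in the transcript it lies. The 3 probes below are shown because, from general knowledge of these proteins and not from an annotation, each reads the coding part for a ligand-binding domain, while their signals differed widely. They are written in the direction of the transcript, and capitals mark the TGA taken as the Nr3c2 stop codon. Positions are on build mm9, per the file headers.
Esr1, chr10:5489352-5489411, minus strand: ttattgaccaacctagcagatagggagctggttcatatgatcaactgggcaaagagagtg
Pgr, chr9:8961434-8961493, plus strand: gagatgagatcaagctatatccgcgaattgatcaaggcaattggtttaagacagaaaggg
Nr3c2, chr8:79766370-79766429, plus strand: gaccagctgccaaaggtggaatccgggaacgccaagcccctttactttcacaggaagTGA

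The target of the deletion separated the genotypes. The Selenbp1 probe read 7894 to 11236 intensity units in wild type and 1287 to 1519 in the knockout. Whether that probe lies inside the deleted part is not known here. Granulosa, theca, luteal and oocyte markers were detected: all 12, 9 of 10, all 8 and all 10 of them were measured. The theca marker not measured was Insl3. Each measured marker rose well above background on all 6 arrays. A gene counted as measured if a probe did so on all 3 arrays of a genotype. Of the 24415 probes that did, 23156 did so on all 6 arrays, so the filter nearly fixed that result. Between 61.6% and 69.3% of spots were well above background, fewest in wild type replicate 3. The arrays lay on 2 slides. Wild type replicates 1 and 2 shared slide 1, while all 3 knockouts were on slide 2 together with wild type replicate 3. Tissue markers also set single arrays apart. Ovgp1, the secreted oviduct glycoprotein, had a log2 signal of 4.83 in wild type replicate 2 against -3.49 to -1.13 on the other arrays. Cfd, the fat cell protein adipsin, stood at 3.44 in wild type replicate 1 against -7.25 to -1.03 elsewhere. Levels below are log2 signals relative to the 75th percentile of the same array, taken over all spots that were not controls. Among the probes kept for testing, a level near 0 ranks lower: Pgrmc2, with a wild-type mean of 0.28, stood at percentile 63.8.

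Estrogen receptor beta, Esr2, was the brightest of the nuclear receptors. Its probe, on chromosome 12 at 77221426 to 77221485, gave levels of 2.07, 2.13 and 1.83 in wild type (replicates 1, 2, 3). In the knockout they were 1.72, 2.73 and 2.16. Knockout replicate 2 was the highest of all 6 arrays and knockout replicate 1 the lowest, so the genotypes overlapped. The mean was 2.01 ± 0.16 (SD, n = 3) for wild type, against 2.20 ± 0.51 (SD, n = 3) in the knockout. The difference was 0.19 with a standard error of 0.26 and a 95% interval from -0.43 to 0.82 (limma, adjusted p = 1.00). Knockout replicate 2 was also the array with the least signal from corpus luteum markers, whose mean over 8 genes, each centred on its own mean, was -1.90 there and 0.0029 to 0.83 on the other 5 arrays. Theca and interstitial, smooth muscle and myeloid markers were also lowest in that array, at -0.52, -0.54 and -0.33. Granulosa markers were at -0.057 there and highest in knockout replicate 3, at 0.46. The part of any of these markers in the Esr2 value was not tested. Without knockout replicate 2 the Esr2 difference was -0.071.

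Estrogen receptor alpha, Esr1, was read by 3 probes, called a, b and c in order of brightness. Probe a, on chromosome 10 at 5343056 to 5343115, was printed at 10 spots on every array. Its levels were -1.82, -2.20 and -2.24 in wild type (replicates 1, 2, 3) and -2.69, -2.49 and -2.34 in the knockout (replicates 1, 2, 3). Every knockout array was below every wild-type array. The mean was -2.08 ± 0.23 (SD, n = 3) for wild type, against -2.51 ± 0.17 (SD, n = 3) in the knockout, which is 1.34-fold lower. On the log2 scale the difference was -0.43 (standard error 0.16) and a 95% interval from -0.81 to -0.039 (limma, adjusted p = 1.00). The unadjusted limma p was 0.0356. An exact permutation test over the arrays gave a two-sided p of 0.1, the smallest that 3 against 3 allows. In bulk ovary RNA, fewer cells of a type and less RNA per cell cannot be told apart.

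The repeated spots gave the measuring error of Esr1 probe a within an array. After outlier spots were left out, 8 to 10 spots remained per array. Their SD on the log2 scale was 0.029, 0.041 and 0.061 in wild type (replicates 1, 2, 3) and 0.038, 0.052 and 0.026 in the knockout (replicates 1, 2, 3). The arrays of 1 genotype differed by several times that, with an SD between arrays of 0.23 in wild type and 0.17 in the knockout. The lowest wild-type spot, at -2.33 in replicate 3, was below the highest knockout spot, at -2.30 in replicate 3. Wild type replicate 1 stood clear of the other arrays, with all 9 of its spots between -1.87 and -1.78.

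**Figure D1:**
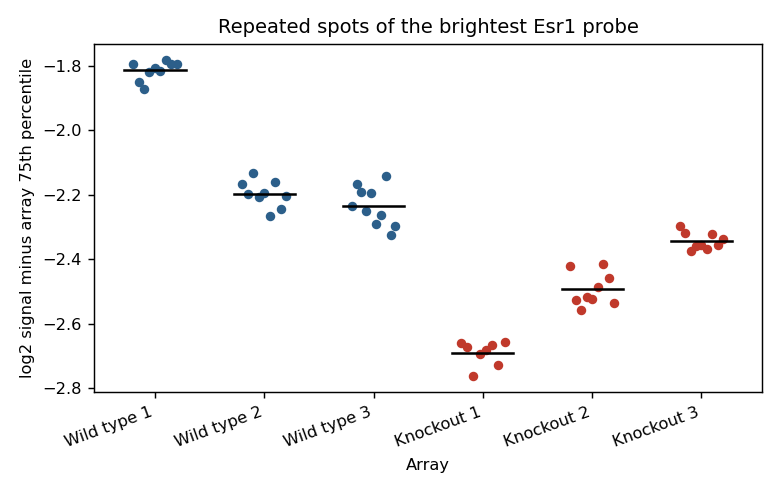
Each point is 1 spot of Esr1 probe a, with the array on the horizontal axis and its log2 signal minus the array's 75th percentile on the vertical axis; bars are array means, blue is wild type and red is knockout. Array means run from -1.82 in wild type replicate 1 to -2.69 in knockout replicate 1, and the spots of wild type replicate 3 and knockout replicate 3 touch.

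The other Esr1 probes were dimmer and their genotypes overlapped. Probe b, the Esr1 probe printed above, gave -3.66, -3.42 and -4.26 in wild type and -4.14, -3.77 and -4.08 in the knockout, each for replicates 1 to 3. Here wild type replicate 3 was the lowest array. The probe b difference was -0.22 with a standard error of 0.24 (95% interval -0.79 to 0.35). Probe c, at 5345046 to 5345105, gave -4.82, -4.24 and -5.16 in wild type and -4.65, -5.75 and -5.53 in the knockout. Knockout replicate 2 did not rise well above background, so 2 of the 3 knockouts measured it. The probe c difference was -0.57 with a standard error of 0.35 (95% interval -1.42 to 0.28). For b and c the interval included 0, and single arrays moved both values. With 1 array left out, probe b ran from -0.46 (without wild type replicate 3) to -0.037 (without wild type replicate 2), and probe c from -0.90 (without knockout replicate 1) to -0.32 (without wild type replicate 2). With slide as a block, where only wild type replicate 3 serves as the control, the differences for a, b and c were -0.27, 0.26 and -0.15. A further probe, described in the files as an Esr1 transcript but not carrying that gene name, stayed below the level called well above background on all 6 arrays.

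The progesterone receptor gene was at the edge of detection. Pgr probe a, on chromosome 9 at 8968492 to 8968551, read 54.0, 44.6 and 7.14 intensity units in wild type (replicates 1, 2, 3). It read 13.8, 13.9 and 16.3 units in the knockout (replicates 1, 2, 3). The probe was well above background in wild type replicates 1 and 2 only, which are the arrays of slide 1, and not in wild type replicate 3 or any knockout. Its mean log2 level was -5.90 ± 1.41 (SD, n = 3) for wild type, against -6.77 ± 0.11 (SD, n = 3) in the knockout. Taking, for each knockout array, the lowest signal well above background there, the wild-type mean was 1.14-fold higher. This is not a lower bound, because wild type replicate 3 entered that mean at its own signal, which was not well above background. Single arrays decide this fold: none above 1 remained without wild type replicate 1, wild type replicate 2 or knockout replicate 3. It was 2.00 without wild type replicate 3. Wild type replicate 3, at -7.52, was lower than all 3 knockouts, and the exact permutation test gave p = 0.4. Wild type replicates 1 and 2 are the arrays in which Cfd and Ovgp1 respectively were high, and the part of fat or oviduct tissue in the Pgr signal was not tested. Pgr probe b, the Pgr probe printed above, read 4.42 to 6.40 units on the 6 arrays and was well above background on none. Another probe described as a Pgr transcript, without the gene name, was also well above background on none, at 3.66 to 10.1 units.

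Among the corticoid receptors, Nr3c1 was bright and Nr3c2 faint. Nr3c1 probe a, on chromosome 18 at 39571641 to 39571700, gave levels of 1.38, 1.03 and 1.26 in wild type (replicates 1, 2, 3). In the knockout it gave 1.22, 1.15 and 0.99. The genotypes overlapped, and the difference was -0.10 with a standard error of 0.13 (95% interval -0.43 to 0.22). Nr3c1 probe b, at 39574183 to 39574242, was dimmer on every array, at -3.13, -3.40 and -2.80 in wild type and -3.13, -3.32 and -2.64 in the knockout. Its difference was 0.078 with a standard error of 0.23 (95% interval -0.47 to 0.63). Replicate 3 of both genotypes was the brightest array of its genotype for probe b. That interval reaches from 0.720 to 1.55 times the wild-type level.

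Nr3c2, the receptor that binds aldosterone and, in cells without corticoid-inactivating enzymes, glucocorticoids too, was faint but measured on all 6 arrays. Its probe gave -5.31, -5.23 and -5.45 in wild type (replicates 1, 2, 3) and -5.60, -5.44 and -5.43 in the knockout (replicates 1, 2, 3). Intensities were 29.9 to 44.2 units. Knockout replicate 1 was the lowest array, and the genotypes overlapped through wild type replicate 3. The difference was -0.16 with a standard error of 0.11 (95% interval -0.43 to 0.11).

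The membrane components differed little between arrays. Pgrmc1, which binds heme and acts with cytochrome P450 enzymes, was the brightest of the 11 probes. On chromosome X at 34145797 to 34145856, it gave levels of 3.49, 3.35 and 3.13 in wild type (replicates 1, 2, 3) and 3.31, 3.27 and 3.18 in the knockout (replicates 1, 2, 3). All knockout arrays lay within the wild-type range. The difference was -0.073 with a standard error of 0.13 (95% interval -0.37 to 0.23). Pgrmc2, its close relative, was read on chromosome 3 at 40870691 to 40870750. It gave 0.32, 0.33 and 0.19 in wild type and 0.45, 0.31 and 0.25 in the knockout. The Pgrmc2 difference was 0.061 with a standard error of 0.11, and the interval from -0.20 to 0.32 corresponds to 0.871 to 1.25 times the wild-type level.

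**Figure D2:**
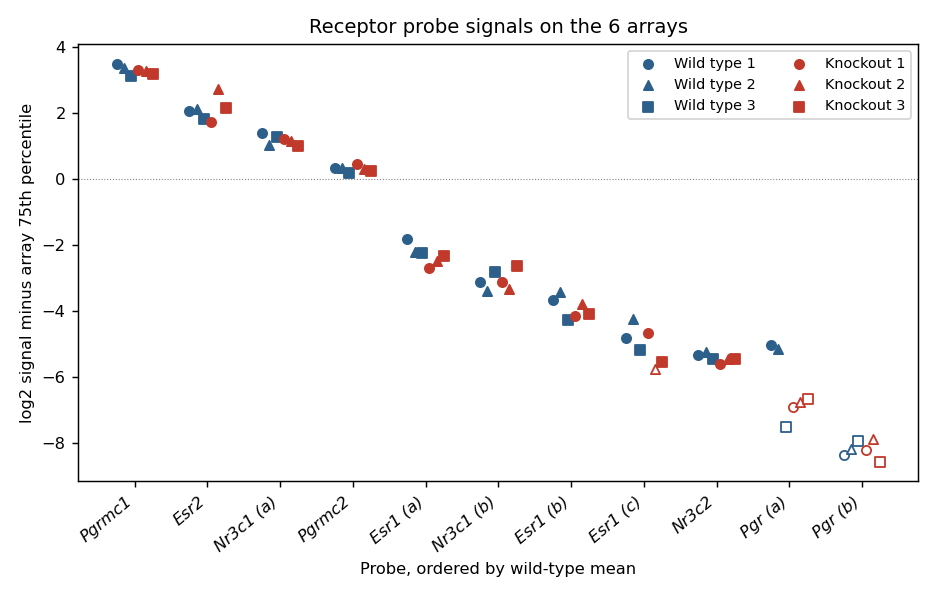
Each point is 1 array for 1 probe, with the probes ordered by their wild-type mean on the horizontal axis and log2 signal minus the array's 75th percentile on the vertical axis; blue is wild type, red is knockout and open symbols are not well above background. Signals run from 3.49 for Pgrmc1 down to -8.55 for Pgr probe b, and Pgr probe a is filled in 2 wild-type arrays only.

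Ordered by wild-type signal, the receptors ran Pgrmc1, Esr2, Nr3c1, Pgrmc2, Esr1, Nr3c2 and Pgr, taking the brightest probe of each gene, and the 9 tested probes had the same order in the knockout. Pgr comes last as a gene mostly not well above background, with no rank of its own. This is an order of probe signals, not of transcript numbers. Probes of 1 gene can differ widely, as Nr3c1 probes a and b did, and why they differed was not tested. Among all 24415 probes kept for testing, the wild-type mean stood at percentile 90.4 for Pgrmc1, 81.4 for Esr2, 73.9 for Nr3c1, 63.8 for Pgrmc2, 37.6 for Esr1 and 3.01 for Nr3c2. Of the 8 neighbouring pairs among the 9 tested probes, 5 had ranges over the 6 arrays that did not overlap. The 3 pairs that did overlap were Esr1 probe a with Nr3c1 probe b, Esr1 probe b with probe c, and Esr1 probe c with Nr3c2. In the last of these the order held in only 4 of 6 arrays. The first 4 genes in the order were separated from each other on every array, with gaps between wild-type means of 0.78 to 1.32.

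Knockout and wild-type ovaries did not differ in any receptor probe past the threshold. Of the 11 probes, 9 for 6 genes were well above background on all 3 arrays of a genotype and were tested, and neither Pgr probe was. At a limma adjusted p under 0.05, 0 of the 9 were called, where 0.0041% of all tested probes were, which is the Selenbp1 probe alone. At an unadjusted limma p under 0.05 there was 1, Esr1 probe a, and 3.95% of all probes reached that. This p was 0.269 with slide as a fixed block, 0.0605 with slide as a random block, 0.106 when wild type replicate 1 was left out and 0.109 when knockout replicate 1 was. With array weights all 3 Esr1 probes were under 0.05 unadjusted, at 0.0437, 0.0335 and 0.0412 for a, b and c. In that setting 2638 of all 24415 tested probes had an unadjusted limma p under 0.05, against 964 in the main analysis. The limma adjusted p values of the Esr1 probes there were 0.46, 0.45 and 0.46. Esr1 probe a was the only member whose groups did not overlap with the knockout lower, 1 of 9 against 4.69% of all probes with a value on every array. No member had all knockouts above all wild types, which 3.97% of all probes had. By sign, 6 of the 9 were lower and 3 higher, with a median difference of -0.10 against -0.017 over all tested probes. Members share targets here, since 5 of the 9 probes belong to Esr1 and Nr3c1.

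**Figure D3:**
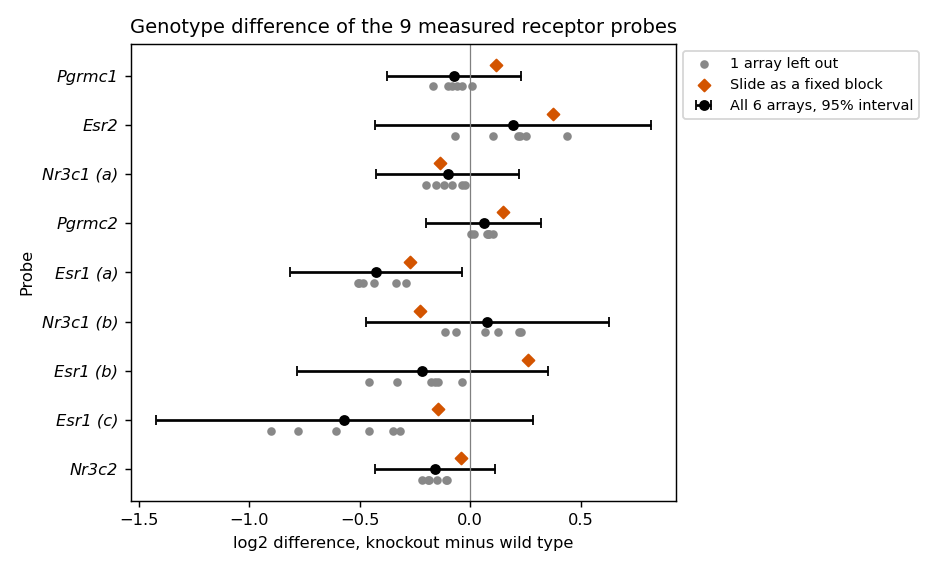
For each of the 9 tested probes on the vertical axis, the black point and bar give the log2 difference, knockout minus wild type, with its 95% interval; grey points leave out 1 array and orange diamonds fit slide as a block. Only the interval of Esr1 probe a, -0.81 to -0.039, leaves out 0, and the diamond of Esr1 probe b lies on the other side of 0 at 0.26.

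Because Esr1 and Esr2 bind the same hormone and DNA element, their difference within each array was compared between genotypes, which cancels the scale of the array. Esr1 probe a minus Esr2 was -3.88, -4.32 and -4.06 in wild type (replicates 1, 2, 3) and -4.41, -5.22 and -4.50 in the knockout (replicates 1, 2, 3). All 3 knockouts were below all 3 wild types, with knockout replicate 2 farthest. Esr1 probe a alone had already separated the genotypes in that direction. Among single probes with a value on every array, 4.69% had all knockouts below all wild types. Esr1 probes b and c, whose genotypes overlapped, were not compared with Esr2 in this way. The mean changed from -4.09 ± 0.22 (SD, n = 3) to -4.71 ± 0.45 (SD, n = 3), a difference of -0.62. The exact two-sided permutation p was 0.1, the smallest possible, and 0.2 after adjustment over the 2 pairs compared. Without knockout replicate 2 the difference was -0.36, and on slide 2 alone it was -0.65. For Pgrmc1 minus Pgrmc2 the values were 3.17, 3.02 and 2.94 in wild type and 2.85, 2.95 and 2.93 in the knockout. These overlapped, with a difference of -0.13 and an exact permutation p of 0.2. That difference was -0.032 on slide 2 alone and -0.073 without wild type replicate 1.

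Markers of the ovarian surface and of neighbouring tissues set single arrays apart, and only some of these were arrays in which Esr1 or Pgr was high. Over 12 surface epithelium and mesothelium markers, all measured, the mean of the centred values was 0.49, 0.038 and -0.052 for the wild-type arrays in order, and -0.51, -0.025 and 0.056 for the knockouts. It was highest in wild type replicate 1 and lowest in knockout replicate 1, as was Esr1 probe a. The arrays between did not follow: knockout replicate 3 was above wild type replicates 2 and 3 for these markers and below both for Esr1 probe a. For fat, 5 of 8 markers were measured and Adipoq, Cidec and Lep were not; the mean was 2.93 in wild type replicate 1 and -1.47 to 0.42 elsewhere. For oviduct, 5 of 10 were measured and Pax8, Foxj1, Dnah5, Cdh16 and Sprr2f were not. The oviduct mean was 2.20 in wild type replicate 2, the array highest for Esr1 probes b and c, and -1.20 to 0.064 elsewhere. In wild type replicate 1, highest for Esr1 probe a and Pgr probe a, it was -0.35. Smooth muscle markers, 7 of 8 measured, ran from -0.54 in knockout replicate 2, which was not the lowest array for Esr1 probe a, to 0.47 in wild type replicate 1. In all 4 lists the genotypes overlapped, and their part in the Esr1 and Pgr values was not tested. Granulosa markers, all 12 measured, ran from -0.53 in wild type replicate 3 to 0.46 in knockout replicate 3. Theca and interstitial markers ran from -0.52 in knockout replicate 2 to 0.22 in knockout replicate 1, and oocyte markers from -0.48 to 0.39. The 8 myeloid markers ran from -0.33 to 0.33.

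**Figure D4:**
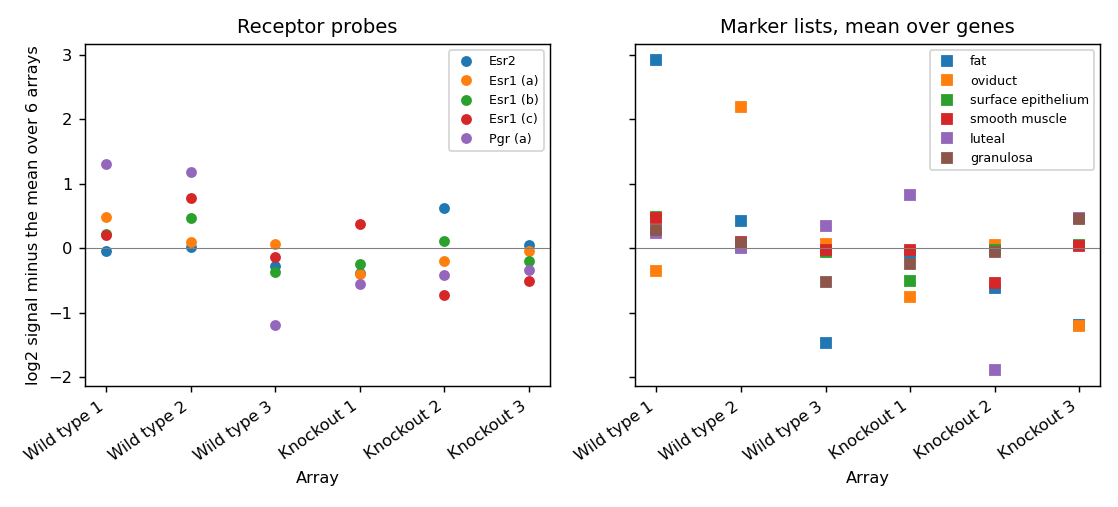
The left panel shows Esr1, Esr2 and Pgr probes and the right panel the mean of 6 marker lists, each as log2 signal minus its own mean over the 6 arrays, with the arrays on the horizontal axis. Fat markers stand at 2.93 in wild type replicate 1, oviduct markers at 2.20 in wild type replicate 2 and luteal markers at -1.90 in knockout replicate 2.

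For each measured receptor, the 2 genes with the nearest pattern over the 6 arrays were found by the mean absolute difference of centred log2 signals, among 19205 genes with a value on every array. For Esr1 they were Ncam1, a neural cell adhesion molecule, at 0.042 and Egfl6, a secreted protein with EGF repeats, at 0.056, where the median gene stood at 0.26. Ncam1 gave -0.76, -1.22 and -1.24 in wild type and -1.63, -1.35 and -1.30 in the knockout, with its highest and lowest arrays the same as those of Esr1. For Esr2 the nearest were Tdgf1, an EGF-CFC co-receptor also known as Cripto, at 0.047 and Trim37, a ubiquitin ligase, at 0.048. Nr3c1 was nearest to Mllt6 (0.035) and Samd4b (0.041), and Nr3c2 to Med7 (0.021) and Olfr521 (0.021). Pgrmc1 was nearest to Fbxl7 (0.014) and Dusp7 (0.021), and Pgrmc2 to Agap3 (0.018) and Edc3 (0.020). Small distances are easily reached by genes that hardly vary, as these last 4 receptors do. With 6 arrays and so many genes compared, these are descriptions only.

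The proteins that receptors work with did not pass the threshold in any list. Across all 19412 genes, with 1 probe each, 10574 were lower and 8838 higher in the knockout, with a median of -0.017. Of 16 chaperones and cochaperones, 11 were lower and 5 higher, with 0 called and a median of -0.088. Dnajb1 and Dnaja1, cochaperones of Hsp70, differed by -0.27 (standard error 0.10) and -0.26 (standard error 0.11), each with no overlap between genotypes. They were picked for the smallest p of the list, which favours a lack of overlap. Of all probes with a value on every array, 4.69% had all knockouts below all wild types and 3.97% all above. Hspa8, the constitutive Hsp70, was at 0.14, but its spots in wild type replicates 1 and 2 were outliers and were left out of the fit. Of 18 measured coactivators, 11 were lower and 7 higher, with 0 called and a median of -0.035. The RNA helicases Ddx5 and Ddx17, which also act as receptor coactivators, differed by 0.28 and 0.30, with standard errors of 0.10 and 0.12 and no overlap. These helicases were likewise picked for the smallest p of their list. Ppargc1a was at -0.32 and overlapped. Of 12 corepressors, 7 were lower and 5 higher, with a median of -0.022. Nr0b1, which encodes DAX1, was at -0.52, Phb2 at -0.28 and Nrip1, which ovulation needs, at 0.15. These 3 had standard errors of 0.42, 0.24 and 0.16, and with slide as a block stood at -0.33, -0.79 and 0.43.

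Other receptors and the enzymes that set the ligand supply were similar. Of 13 other steroid receptors and relatives, 9 were lower and 4 higher, with 0 called and a median of -0.051, or 0.085 with slide as a block. Paqr6, a membrane progestin receptor, differed by 0.37 with a standard error of 0.15, the membrane estrogen receptor Gper1 by 0.18 and the orphan receptor Esrrb by -0.20. Of 9 measured enzymes of steroid activation and breakdown, 5 were lower and 4 higher, with a median of -0.036, or 0.11 with slide as a block. The steroid sulfatase Sts was at 0.31 (standard error 0.13) without overlap, and Hsd17b2, which oxidises estradiol, at -0.26 with overlap. Sts was picked for the smallest p of its list, which favours a lack of overlap. Of all probes with a value on every array, 3.97% had all knockouts above all wild types. Akr1c18, which inactivates progesterone as the corpus luteum regresses, ran from -2.23 to 2.65 in wild type and -1.65 to 3.76 in the knockout, with the knockout mean 1.36 higher (standard error 1.74). Leaving out 1 array gave 0.072 to 3.02 for Akr1c18, and slide as a block gave 3.92, while Sts was at 0.11 with that block.

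Genes known to respond to the receptors, drawn from several tissues, also had no called member. Of 18 measured estrogen response genes other than Pgr, 14 were lower and 4 higher, with a median of -0.16. Myc differed by -0.69 with a standard error of 0.14 and did not overlap. Stc2, a secreted glycoprotein, differed by -1.74 with a standard error of 0.52, or -0.56 with slide as a block. The cyclin Ccnd2 was at 0.39 with a standard error of 0.14. Stc2 and Ccnd2 did not overlap either. Myc, Stc2 and Ccnd2 were the 3 of the 18 with an unadjusted limma p under 0.05, and 808 of all 19412 genes had one. Myc and Stc2 were picked for the smallest p of the list, which favours a lack of overlap, and Ccnd2 for its largest positive difference. Over all probes with a value on every array, 4.69% were lower without overlap and 3.97% higher. Ltf, the lactoferrin gene of estrogen-stimulated uterus and oviduct, differed by -2.74 with a standard error of 1.56, and its level of 3.55 in wild type replicate 2 set that value against -3.52 to -0.22 on the other 5 arrays. Wild type replicate 2 was also the array with high Ovgp1, whose part in the Ltf value was not tested.

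Of 14 measured progesterone response genes, 5 were lower and 9 higher, with 0 called and a median of 0.083. Ihh was at 0.66 (standard error 0.30) and Prkg2 at 0.59 (standard error 0.30). Edn2, the endothelin made at follicle rupture, had a level of 1.42 in knockout replicate 1 and -2.70 to -1.88 on the other arrays, so that the means differed by 0.85 (standard error 1.09), or -0.51 without that array. Adcyap1 was at -0.77 with a standard error of 0.92, from -1.49 to 0.035 with 1 array left out and -2.38 with slide as a block. Ihh was at 1.05 with that block.

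Of 22 glucocorticoid response genes, 14 were lower and 8 higher, with 0 called and a median of -0.11, or 0.12 with slide as a block and 0.12 without knockout replicate 2. Per1, a clock gene that glucocorticoids induce, differed by 0.52 with a standard error of 0.12, and Ddit4, an inhibitor of mTORC1 signalling, by 0.57 with a standard error of 0.20. All 3 knockouts were above all wild types for both, as for 3.97% of all probes with a value on every array. Both were picked for the smallest p of the list. These 2 of the 22 had an unadjusted limma p under 0.05, and 808 of all 19412 genes did. Tsc22d3, which encodes GILZ, one of the most direct targets of Nr3c1, was at 0.0044 with a standard error of 0.18. It ran from -0.15 to 0.13 with 1 array left out and was 0.32 with slide as a block. Tsc22d3 is on both corticoid lists and was named through the mineralocorticoid list, as its largest positive difference. Lcn2, the lipocalin of stimulated epithelia, stood at 3.68 in wild type replicate 2 and differed by -1.57 with a standard error of 1.68. Of 8 measured mineralocorticoid response genes, several shared with the glucocorticoid list, 7 were lower and 1 higher, with a median of -0.13, or 0.25 with slide as a block. Nedd4l, a ubiquitin ligase of sodium channels, was at -0.27 with a standard error of 0.20. With slide as a block, the sign turned for Nedd4l (0.095), Lcn2 (1.07), Ppargc1a (0.34) and Esrrb (0.48).

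**Figure D5:**
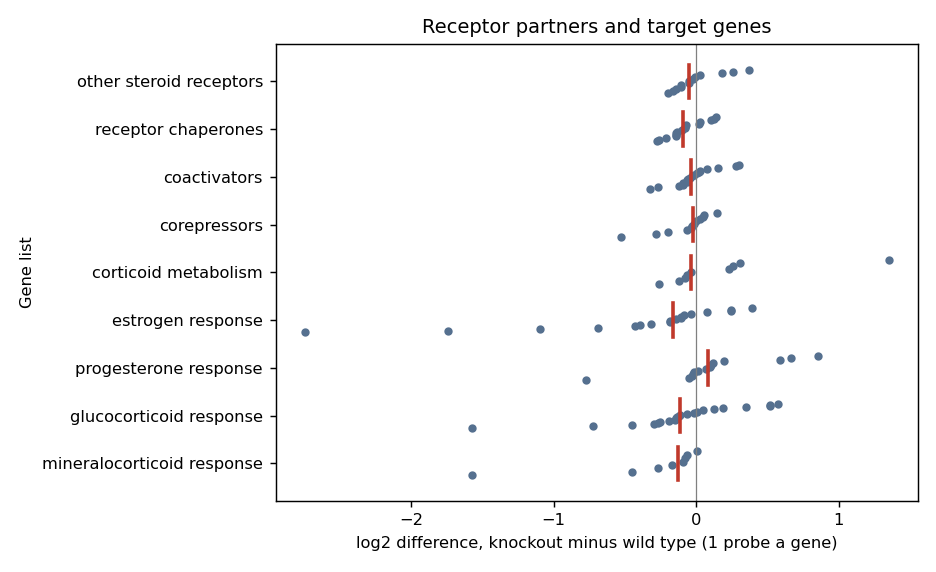
Each point is 1 gene of a list, with its log2 difference, knockout minus wild type, on the horizontal axis and the list on the vertical axis; red bars are list medians and the receptors themselves are left out. Medians lie between -0.16 for estrogen response and 0.083 for progesterone response, and the far points are Ltf at -2.74, Stc2 at -1.74, Lcn2 at -1.57 and Akr1c18 at 1.36.

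Promoters from RefSeq on GRCm38.p6, 300 bases long around a gene start, were searched on both strands for the paired sequence elements that these receptors bind. The estrogen element was GGTCA, 3 bases and TGACC, and it occurred in 23 of 32851 promoters, or 0.0700%. The element shared by the receptors for glucocorticoids, mineralocorticoids and progesterone was GNACA, 3 bases and TGTNC, in 156 promoters or 0.475%. Of the 7 listed receptors 6 had a promoter in the table, 7 windows in all, and none of these held either element. No estrogen response promoter of 16 held the estrogen element, and no progesterone response promoter of 20 held the second. Of 31 glucocorticoid response promoters 4 held it, in 3 genes, since 2 overlapping Fam107a promoters contain the same site. The 3 sites are shown because they match the element close to the gene start, with the match in capitals.
Sgk1, chr10:21993696-21993720, plus strand: cggaaaGAACAGAATGTTCtcggag
Mt1, chr8:94178989-94179013, plus strand: ctatagGGACATGATGTTCcacacg
Fam107a, chr14:8309879-8309903, minus strand: tggcttGGACATGGTGTTCtgagtc

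None of the genes with that element was called. Sgk1, a kinase that stabilises sodium channels, ranged from 0.95 in knockout replicate 2 to 4.06 in wild type replicate 3, and differed by -0.45 with a standard error of 0.88, or -1.85 with slide as a block. Mt1, a metallothionein, differed by -0.14 with a standard error of 0.12, and Fam107a by 0.049 with a standard error of 0.13. A match of letters is not evidence of binding, and its absence from so short a window says nothing about the receptor.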

How the data were processed

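The authors deposited spot intensity from Agilent Feature Extraction 10.7.1.1, background-subtracted and detrended within each array, per the file headers. An intensity table of the whole series, also deposited, has a median of 119.8 in all columns; how it was made is not stated, and it was used as an alternative. Of 43020 spots that were not controls, those marked as outliers (192 to 459 per array) were left out, and the log2 values of a probe's spots were averaged. Each array's 75th percentile was subtracted. Of 39429 probes, 24415 well above background on all 3 arrays of a genotype were fitted with limma 3.58.1 in R 4.3.3 (lmFit, eBayes, genotype only, two-sided), with Benjamini-Hochberg adjustment over all of them at 0.05. The fit was tested on simulated data. The number of arrays limits precision. No spot was saturated. Members went by the gene name in the files, list genes by accession or symbol through a RefSeq table of GRCm38.p6, with the probe of highest mean for a gene. Named genes were every member, the 2 members of a list with the smallest p and the largest difference each way, and the 2 nearest patterns per receptor. Ovgp1, Cfd, Sgk1, Mt1 and Fam107a were added after their values were seen. Members, lists and tests were chosen with earlier results of these data known. Alternatives were normexp (offset 50), quantile, median or deposited values, other filters, slide and replicate blocks, array weights and leaving out arrays.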

Additional observations from a re-analysis of the deposited data

How the results depend on the processing

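No receptor probe was called under any alternative. Esr1 probe a and Nr3c2 were lower in all 17 alternatives, and Pgrmc2 was higher in all 17. Esr1 probe c was lower in all 16 of its alternatives. These counts are not of independent tests. Changing the filter or adding the replicate block left each difference as in the main analysis, so the sign could not turn there. Slide as a fixed block gave the same differences as slide 2 alone. The number of probes called among all tested, 1 in the main analysis, was 0 with no filter, slide as a fixed block, slide 2 alone or the replicate block, where 1805, 2389, 1604 and 1023 had an unadjusted limma p under 0.05. It ran from 0 to 19 with 1 array left out, with 19 without wild type replicate 3. With slide as a fixed block, as on slide 2 alone, the sign turned for Pgrmc1 (0.12), Nr3c1 probe b (-0.23) and Esr1 probe b (0.26). With normexp it turned for Nr3c1 probe a (0.027). Leaving out 1 array gave -0.17 to 0.0091 for Pgrmc1, -0.071 to 0.44 for Esr2 and -0.12 to 0.23 for Nr3c1 probe b. The cause of these turns was not tested. Same-numbered replicates of the genotypes share only a number: their deviations correlated at -0.34, 0.32 and -0.050 across probes. The sample titles, in replicate order, are W2, W3 and W5 for wild type and KO1, KO2 and KO4 for knockout. The Pgr fold with single arrays left out was added after seeing the data. Signals of Nr3c2, Pgr and Esr1 probe c lie near background, which limits what 3 arrays a group can show there.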
